A study of Drosophila melanogaster with 28 samples.

Results

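Intergenic long noncoding RNA (lncRNA) genes are defined here as annotated Drosophila genes with a symbol that starts with lncRNA: and a span that overlaps no other gene on either strand. Spans had to be at least 200 nt long, and the transcript with the highest mean count stood for each gene. Of 1894 lncRNA genes in the count table (lncRNA:roX1 and lncRNA:roX2 left out), 1212 overlapped no other gene, and 1209 of these had more than 10 reads summed over the libraries. The other 3 (lncRNA:CR40947, lncRNA:CR45504 and lncRNA:CR45505) are listed at 0 reads in all 4 libraries. In all, 16513 genes were tested. The count table holds ChIP-seq reads for Rpb3, part of the core of RNA polymerase II (Pol II), from stage 5 embryos, the stage of the major wave of zygotic genome activation (ZGA). Ctrl embryos (genotype label t180) came from a control RNAi line. DomKD embryos (genotype label t216) came from mothers carrying a short hairpin RNA against dom, which encodes the ATPase Domino. In both groups a maternal germline Gal4 driver was crossed in, so that the hairpin lowers the maternal supply while the zygote keeps its own dom gene. Each group had 2 libraries, each from a pool of embryos, and p-values therefore measure only the spread between these libraries.

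An lncRNA is a transcript of more than 200 nt without a long open reading frame. In the fly, lncRNA genes are transcribed by Pol II and are often restricted to 1 tissue, with many annotated from testis or from the nervous system. Few have a known function. Since their spans touch no other gene, the reads counted over an intergenic lncRNA gene are not reads of an overlapping gene, although ChIP fragments from a close neighbour can still reach into the span. Domino places the histone variant H2A.Z into chromatin, most of all around transcription start sites, and Zelda is the pioneer factor that opens many early zygotic enhancers and promoters.

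The reads in tested genes summed to between 8326382 and 12022604 per library, of which between 61319 and 92187 fell in the 1209 intergenic lncRNA genes. Read density is given as read counts scaled to each library's total over tested genes (counts per 1e6 reads, CPM) per kb of span, and the background density of a library is the most frequent density of genes with spans above 2000 nt. The background was 4.65 and 4.23 CPM per kb in Ctrl replicates 1 and 2, and 4.40 and 7.02 in DomKD replicates 1 and 2, so that DomKD replicate 2 held the most background reads. A gene with a mean density over all libraries, DomKD included, of at least 2 times the mean background was called occupied, and otherwise silent. By this measure 63 of 72 tested early zygotic genes were occupied, at a median of 8.41 times background, against 5 of 36 genes of later tissues (elav, Lsp1beta, Mst84Da, repo and Rh4), at a median of 1.03. The targeted gene dom had 617 and 664 CPM in Ctrl and 599 and 371 CPM in DomKD, and its change did not pass the test (log2 fold change -0.40, adjusted p 0.267 by edgeR). Rpb3 on the zygotic dom gene does not report the maternal RNA that the hairpin targets, so that dom cannot check the labels here.

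The start regions of 7 occupied genes are printed to show sequences at 4 of the 10 genes with the highest Ctrl density, at a gene with more than 1 Zelda match, at the occupied gene with the largest fall and at 1 of the 9 occupied genes that rose. Each run covers 250 nt before to 50 nt after the annotated start (Release 6 of the genome, RefSeq), 5′ to 3′ on the gene's strand, and capitals mark exact matches on either strand to the 5 motifs searched. CAGGTA is the hexamer bound by Zelda, and GAGAG is the core bound by GAGA factor. TATCGATA is the DNA replication-related element (DRE) of many housekeeping promoters. The TATA box was searched as TATAAA, and the letters used for the initiator of core promoters were TCAGT. lncRNA:CR45677 (chr3L:20395802-20396101, minus strand) had the highest density of all 1209 genes and has a lone GAGAG match, on the opposite strand. lncRNA:CR43887 (chr3L:11692885-11693184, plus strand) has a Zelda match on the opposite strand, beginning at -42, and a TATA box match at -28, where base 1 is the annotated start and the base before it is -1. lncRNA:marge (chr3L:14977582-14977881, minus strand) also has a TATA box match at -28, and its initiator match begins at base 4. lncRNA:CR45559 (chr3R:6893413-6893712, minus strand) lies in the Antennapedia complex and has GAGAG matches at -97, -95, -93 and -47, of which the first 3 overlap. lncRNA:CR43856 (chr2L:15012618-15012917, minus strand) has Zelda matches at -145 and -102 and was the only one of these 7 with more than 1. lncRNA:CR44564 (chr3L:17337048-17337347, minus strand) showed the largest fall in DomKD among the occupied genes and has an initiator match alone. lncRNA:CR45700 (chr2L:19322688-19322987, plus strand), which rose in DomKD, has no match to any of the 5 motifs. A match describes letters in this window and says nothing about binding.
lncRNA:CR45677: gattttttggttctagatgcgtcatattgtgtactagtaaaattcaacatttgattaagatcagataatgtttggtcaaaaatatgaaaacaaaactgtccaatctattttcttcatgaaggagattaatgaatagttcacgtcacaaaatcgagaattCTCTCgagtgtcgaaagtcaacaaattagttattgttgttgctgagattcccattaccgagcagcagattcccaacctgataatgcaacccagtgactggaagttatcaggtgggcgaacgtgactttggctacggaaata
lncRNA:CR43887: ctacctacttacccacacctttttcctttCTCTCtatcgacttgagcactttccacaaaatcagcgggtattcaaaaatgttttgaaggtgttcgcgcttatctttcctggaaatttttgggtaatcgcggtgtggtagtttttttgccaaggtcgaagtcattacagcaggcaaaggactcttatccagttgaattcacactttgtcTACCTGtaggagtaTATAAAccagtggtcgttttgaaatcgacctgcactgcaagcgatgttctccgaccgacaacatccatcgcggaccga
lncRNA:marge: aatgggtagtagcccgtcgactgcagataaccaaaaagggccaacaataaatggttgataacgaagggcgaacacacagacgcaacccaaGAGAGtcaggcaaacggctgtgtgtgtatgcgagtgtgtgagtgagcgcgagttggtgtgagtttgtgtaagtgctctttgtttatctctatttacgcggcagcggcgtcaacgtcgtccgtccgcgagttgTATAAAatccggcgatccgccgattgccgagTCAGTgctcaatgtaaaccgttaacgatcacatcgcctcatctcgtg
lncRNA:CR45559: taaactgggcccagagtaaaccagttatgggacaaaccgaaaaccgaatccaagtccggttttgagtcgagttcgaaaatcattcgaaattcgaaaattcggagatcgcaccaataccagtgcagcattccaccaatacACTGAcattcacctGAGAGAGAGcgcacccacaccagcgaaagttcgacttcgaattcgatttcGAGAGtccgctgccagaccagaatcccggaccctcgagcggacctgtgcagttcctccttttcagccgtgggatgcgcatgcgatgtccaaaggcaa
lncRNA:CR43856: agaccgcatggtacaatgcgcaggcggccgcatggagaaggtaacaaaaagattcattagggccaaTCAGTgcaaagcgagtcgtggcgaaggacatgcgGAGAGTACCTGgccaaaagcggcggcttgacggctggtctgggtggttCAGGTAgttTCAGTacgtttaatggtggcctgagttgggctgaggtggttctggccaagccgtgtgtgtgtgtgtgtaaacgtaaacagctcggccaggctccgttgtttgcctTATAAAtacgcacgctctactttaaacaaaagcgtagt
lncRNA:CR44564: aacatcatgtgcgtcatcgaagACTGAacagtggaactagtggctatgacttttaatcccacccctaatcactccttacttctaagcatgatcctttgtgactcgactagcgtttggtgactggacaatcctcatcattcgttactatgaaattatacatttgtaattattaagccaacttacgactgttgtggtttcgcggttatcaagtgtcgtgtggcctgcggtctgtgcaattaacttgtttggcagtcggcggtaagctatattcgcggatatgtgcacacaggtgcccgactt
lncRNA:CR45700: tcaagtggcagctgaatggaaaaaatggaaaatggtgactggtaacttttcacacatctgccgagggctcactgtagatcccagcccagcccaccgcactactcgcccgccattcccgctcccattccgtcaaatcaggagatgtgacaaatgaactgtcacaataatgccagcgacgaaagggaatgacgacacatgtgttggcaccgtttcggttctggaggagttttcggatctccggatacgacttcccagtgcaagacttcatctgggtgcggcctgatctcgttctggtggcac

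Across all windows, the Zelda hexamer was present at 9 of 95 occupied intergenic lncRNA genes (9.47%) and at 61 of 1113 silent ones (5.48%), beside 6.34% of the windows of all 16494 tested genes with a window. Among protein-coding genes that overlap no other gene the shares were similar, at 8.51% of occupied and 5.17% of silent ones. GAGAG was present at 38 of the 95 occupied and 28.8% of the silent genes, and at 29.7% of all windows. The DRE, a motif of housekeeping promoters, was rare at these genes. It was found at 3 occupied genes (lncRNA:CR45530, lncRNA:CR44899 and lncRNA:CR45297; 3.16%) and at 0.809% of the silent ones, whereas 16.4% of occupied protein-coding genes that overlap no other gene had it, and 8.02% of all windows. TATA box matches were found at 35.8% of occupied and 39.9% of silent genes, and initiator matches at 46.3% and 46.0%, against 44.1% and 50.6% of all windows. These shares were not tested, and embryos may start these lncRNAs elsewhere than the annotation does.

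Of the 1209 intergenic lncRNA genes, 95 (7.86%) were occupied by Pol II at stage 5 over the Ctrl and DomKD libraries together, and 1114 were silent. By the same measure 36.1% of all tested genes were occupied, as were 33.1% of the 7139 protein-coding genes that overlap no other gene and 22.8% of the 680 tested lncRNA genes that overlap another gene. The silent genes formed 1 peak around the background, with a median density of 1.03 times background. The occupied genes had a median of 3.19 times background and reached 64.7 times background, while 13 of them were at 8 times background or more. Occupied genes were not longer than silent ones, with a median span of 549 nt against 633.5 nt, and 75 of 95 had a single exon against 782 of 1114. Their median mean count was 98.25 reads per library, against 33.5 for the silent genes. The share of occupied genes was 5.57% on chromosome 2L, 6.92% on 3L, 8.24% on 3R, 9.79% on X and 10.5% on 2R. On the small chromosome 4 the occupied genes were lncRNA:CR44440, lncRNA:CR44441 and lncRNA:CR45123, 3 of 9. Just inside the threshold were lncRNA:CR44446, lncRNA:CR44441 and lncRNA:CR43801, each at 2.02 times background. Just outside were lncRNA:CR44023, lncRNA:CR45440 and lncRNA:CR44731, at 2.00, 1.99 and 1.99. With a threshold of 1.5 times background 193 genes were occupied, and with 3 times background 54. At the threshold used, 129 genes were occupied with the Ctrl libraries only and 81 with the DomKD libraries only.

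**Figure D1:**
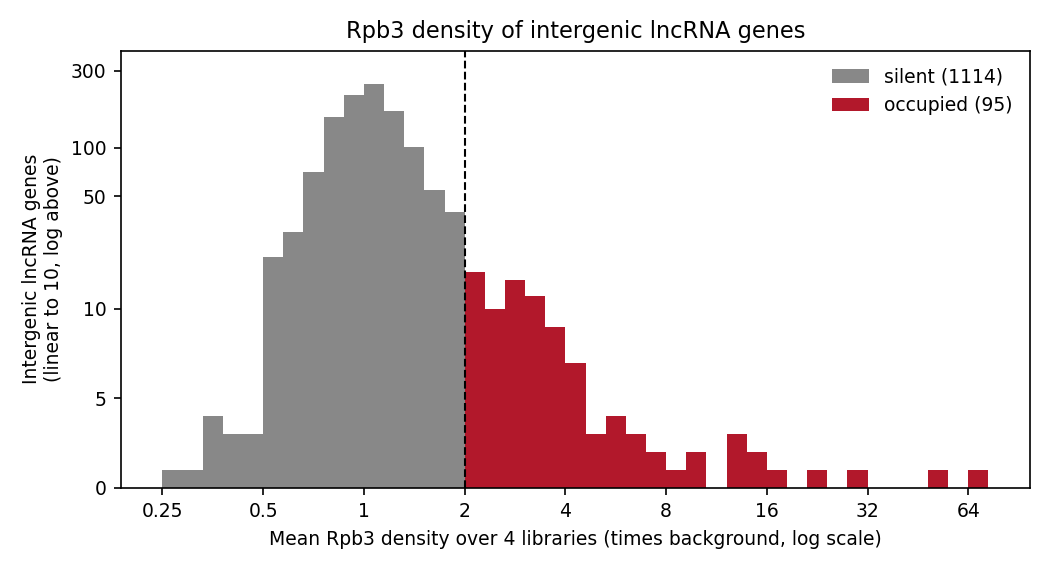
Histogram of the mean Rpb3 density of the 1209 intergenic lncRNA genes over the 4 libraries, in multiples of the background density (log scale); the vertical axis counts genes and is linear up to 10 and logarithmic above. The 1114 silent genes (grey) centre on background and the 95 occupied genes (red) lie at 2 times background or more, up to 64.7.

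The 10 genes with the most Pol II in Ctrl all stood above the median density of the early zygotic list (8.41 times background). lncRNA:CR45677 (3L, 20395394 to 20395851, minus strand, 1 exon) had 146 and 164 CPM in Ctrl replicates 1 and 2 and 195 and 104 CPM in DomKD replicates 1 and 2. It stood at 69.9, 85.1, 86.7 and 35.3 times the background of these libraries in the same order, so that DomKD replicate 1 was above both Ctrl libraries and DomKD replicate 2 below both. Its nearest gene, 436 nt upstream on the same strand, was trbl (47.4 times background), which encodes a pseudokinase that holds back mitosis in the invaginating mesoderm. lncRNA:CR43887 (3L, 11693135 to 11693661, plus strand) had 128 and 134 CPM in Ctrl and 165 and 104 CPM in DomKD, at a mean of 49.1 times background. It converges on Dph1, 217 nt away and at 33.3 times background. lncRNA:marge (3L, 14976626 to 14977631, minus strand, 2 exons) had 134 and 145 CPM in Ctrl and 217 and 129 CPM in DomKD, at 30.2 times background. The nearest gene of lncRNA:marge was Ocho, a Bearded family gene of the Notch pathway, at 27.4 times background.

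In each of these 3 genes the DomKD libraries lay on either side of the Ctrl libraries, and none of the 3 changes passed the test. The log2 fold changes were -0.04 for lncRNA:CR45677 (adjusted p 0.913), 0.04 for lncRNA:CR43887 (adjusted p 0.919) and 0.31 for lncRNA:marge (adjusted p 0.363), by the likelihood ratio test of edgeR with Benjamini-Hochberg adjustment over all 16513 genes. The other 7 of the 10 genes with the highest Ctrl density and at least 30 reads were lncRNA:CR44930, lncRNA:alphagamma-element:CR32865, lncRNA:CR43148, lncRNA:CR45360, lncRNA:CR45559, lncRNA:CR43685 and lncRNA:CR44762. Of the 10, lncRNA:CR44762 alone passed the test. DomKD replicate 2 gave fewer times background than both Ctrl libraries at all 10.

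**Figure D2:**
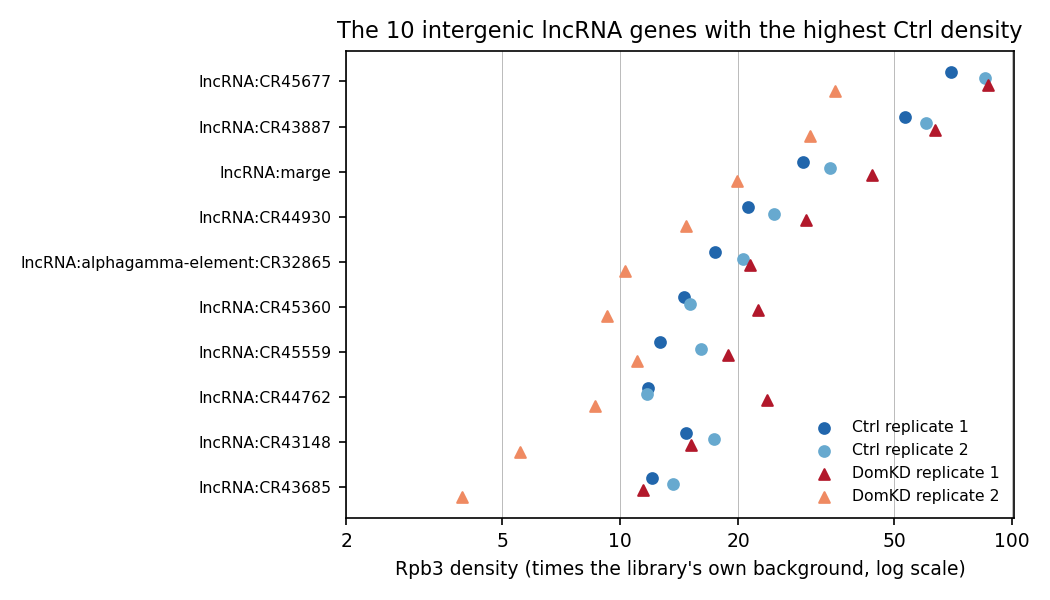
Rpb3 density of the 10 intergenic lncRNA genes with the highest Ctrl density, as multiples of each library's own background (log scale), with 1 point per library. The orange triangles of DomKD replicate 2 lie to the left of both Ctrl points at all 10 genes, for example at 35.3 against 69.9 and 85.1 for lncRNA:CR45677.

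Most members with a name of their own were silent. lncRNA:alphagamma-element:CR32865 (3R, 12475336 to 12478267) lies 7559 nt from Hsp70Ba, a heat shock gene, and is transcribed on heat shock. It stood at 16.5 times background, with 233 and 253 CPM in Ctrl and 309 and 195 CPM in DomKD (log2 fold change 0.05, adjusted p 0.896). Its span holds 5 annotated transposable element insertions, and repeated copies can lower or share its reads. lncRNA:flam (X, 21631891 to 21790731) is the piRNA cluster that silences gypsy-type elements in the somatic cells of the ovary. With 158841 nt it was the longest span, and with 279.6 and 252 CPM in Ctrl it had the most reads of the silent genes. Its density was 0.38 times background, and between 0.375 and 0.387 in the individual libraries. The flam span holds 47 transposable element insertions, and reads of low mapping quality were not counted. lncRNA:cherub, known from the stem cells of the larval brain, was at 0.90 times background, and lncRNA:acal, which acts in dorsal closure of the later embryo, was at 1.27. lncRNA:dntRL and lncRNA:Yu were at 1.56 and 1.12. The 13 genes of the lncRNA:TS series, named for their testis-specific RNAs, were all silent, at between 0.88 (lncRNA:TS9) and 1.45 (lncRNA:TS18) times background.

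The other silent genes with the most reads were long rather than dense. lncRNA:CR31386, with a span of 36194 nt, had 1844 and 1146 reads in Ctrl and 1528 and 2131 in DomKD, but only 0.91 times background. lncRNA:CR32111, lncRNA:CR44177 and lncRNA:CR45232, with spans of 20347, 12610 and 9247 nt, were at 1.09, 1.04 and 1.20 times background. None of these 4 changed past the threshold (adjusted p between 0.198 for lncRNA:CR44177 and 0.710 for lncRNA:CR45232, edgeR).

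Several occupied members lie in the Antennapedia complex on 3R (6661427 to 6999228, from lab to Antp), the cluster of homeotic genes that pattern the head and anterior thorax. This region was chosen after the values were seen. Of its 6 members, 4 were occupied, namely lncRNA:CR44930 at 21.5 times background, lncRNA:CR45559 at 14.2, lncRNA:CR44931 at 3.94 and lncRNA:CR45900 at 2.16. lncRNA:CR44930 (6765485 to 6766709) begins 223 nt downstream of Ama, which encodes a secreted adhesion protein, and had 118 and 127 CPM in Ctrl and 180 and 116 CPM in DomKD. lncRNA:CR45559 (6892918 to 6893462), whose start region is printed above with its GAGAG run, had 31.3 and 36.9 CPM in Ctrl and 50.7 and 38.9 CPM in DomKD. Both DomKD libraries of lncRNA:CR45559 were above both Ctrl libraries, but the change did not pass the test (log2 fold change 0.40, SE 0.21, adjusted p 0.181). Its nearest gene, the silent lncRNA:CR44932, was 1715 nt away at 1.12 times background. lncRNA:CR44931, with 7601 nt the longest occupied member, had 127 and 127 CPM in Ctrl and 222 and 139 CPM in DomKD (log2 fold change 0.51, adjusted p 0.128). All 6 members of the complex had a log2 fold change above 0, as did 980 of all 1209 members under this scaling, and none of the 6 passed. In the bithorax complex (3R, 16656623 to 16972236, from Ubx to Abd-B) the 3 members, lncRNA:CR44945, lncRNA:CR45750 and lncRNA:TS16, were silent, and lncRNA:CR44945 and lncRNA:TS16 were higher in DomKD (log2 fold changes 0.77 and 1.30, adjusted p 0.0477 and 0.00528 by edgeR).

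Occupied intergenic lncRNA genes had a close neighbour, and an occupied neighbour, more often than silent ones did in these counts, a difference that was not tested. The nearest gene was within 1000 nt for 71 of 95 occupied members (74.7%) and for 576 of 1114 silent members (51.7%). It was itself occupied for 61 of the 95 (64.2%) and for 121 of the 1114 (10.9%), and within 1000 nt and occupied for 48 (50.5%) and 62 (5.57%). How far reads of such neighbours reach into these spans was not tested. Conversely, 11 occupied members were at 1000 nt or more from any gene and had a silent nearest gene. The densest of these were lncRNA:CR45559, lncRNA:CR45899, which is 1263 nt from Antp at 5.48 times background, and lncRNA:CR44126, which is 6036 nt from CG43366 at 4.16. By orientation, the nearest gene of an occupied member was divergent in 29 cases, convergent in 26, upstream on the same strand in 24 and downstream on the same strand in 16. Among silent members the counts were 305, 235, 266 and 307.

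A few occupied members formed runs, with up to 5000 nt between spans, a limit chosen after the values were seen. There were 6 runs with 13 members. The longest was the trio lncRNA:CR44762, lncRNA:CR44763 and lncRNA:CR44764 on 2R (22689095 to 22691895, all on the plus strand), at 13.3, 6.79 and 7.40 times background. The gaps between them are 99 and 199 nt, so they are not independent examples. lncRNA:CR45360 and lncRNA:CR45359 on 2L (20487976 to 20490282) stood at 14.6 and 9.44 times background, and lncRNA:CR45700 and lncRNA:CR45258 on 2L (19322938 to 19327963) at 2.74 and 2.70.

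Next, Rpb3 occupancy was compared between DomKD and Ctrl to ask whether Pol II at intergenic lncRNA genes depends on the maternal supply of Domino. At the 95 occupied members, 7 were lower and 9 higher in DomKD at an adjusted p under 0.05 (edgeR). Occupancy was set on the mean of all libraries, DomKD included, so this split is not independent of the change. For example, lncRNA:CR44446 was at 1.75 and 1.76 times background in Ctrl and counted as occupied. In contrast, lncRNA:CR44472 was at 2.16 and 2.48 in Ctrl and counted as silent. Among all 5965 occupied genes, 30.6% were lower and 0.939% higher. The median log2 fold change of the occupied members was 0.04 (quartiles -0.29 and 0.40), against -0.40 for all occupied genes and -0.38 for occupied protein-coding genes that overlap no other gene. The occupied lncRNA genes that do overlap another gene had a median of 0.06, with 11 lower and 6 higher of 155. Over all 1209 members, 10 were lower and 57 higher, beside 12.7% and 2.46% of all tested genes. The DomKD libraries lay on 1 side of both Ctrl libraries at 582 members (48.1%), against 62.6% of all tested genes.

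Since members are short and shallow, the same values were taken for genes of like size. Among occupied genes with spans of 200 to 1000 nt, 5 of 73 members were lower (lncRNA:CR43260, lncRNA:CR44213, lncRNA:CR45290, lncRNA:CR45417 and lncRNA:CR45602) and 6 higher, with a median of -0.02. Of 327 occupied protein-coding genes of that span that overlap no other gene, 117 were lower (35.8%) and 5 higher, with a median of -0.42. Among occupied genes with a mean of 30 to 200 reads, 7 of 65 members were lower (10.8%), against 139 of 374 such protein-coding genes (37.2%), with medians of -0.02 and -0.46. Between 2 and 4 times background the medians were 0.04 for 63 members and -0.44 for 1401 such protein-coding genes. Between 4 and 8 times background they were -0.16 for 19 members and -0.36 for 664 protein-coding genes (DomKD replicate 2 alone against Ctrl, -0.41 and -0.66), a smaller gap. At 8 times background or more both were above 0, at 0.28 for 13 members and 0.12 for 297 protein-coding genes. The DomKD libraries disagreed there. DomKD replicate 1 alone against Ctrl gave 0.56 and 0.40, and DomKD replicate 2 alone gave -0.11 and -0.27.

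The sign of the median change rested on the scaling, while the occupied members stayed above the occupied protein-coding genes that overlap no other gene under each scaling run. Scaled to early zygotic genes, the occupied members had a median of -0.29 with 7 lower and 0 higher, against -0.69 and 49.2% lower for the protein-coding genes. At an unadjusted p under 0.05, 2 occupied members were higher by edgeR under this scaling. With library size only, the medians were -0.01 and -0.43. Scaled to the background density, an alternative added after the data were seen, the medians were -0.30 and -0.71, with 15 of 95 (15.8%) and 24.9% lower. The DomKD libraries differed from each other at the occupied members, with medians of 0.23 and -0.11 relative to the Ctrl mean, against -0.20 and -0.58 for the occupied protein-coding genes.

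**Figure D3:**
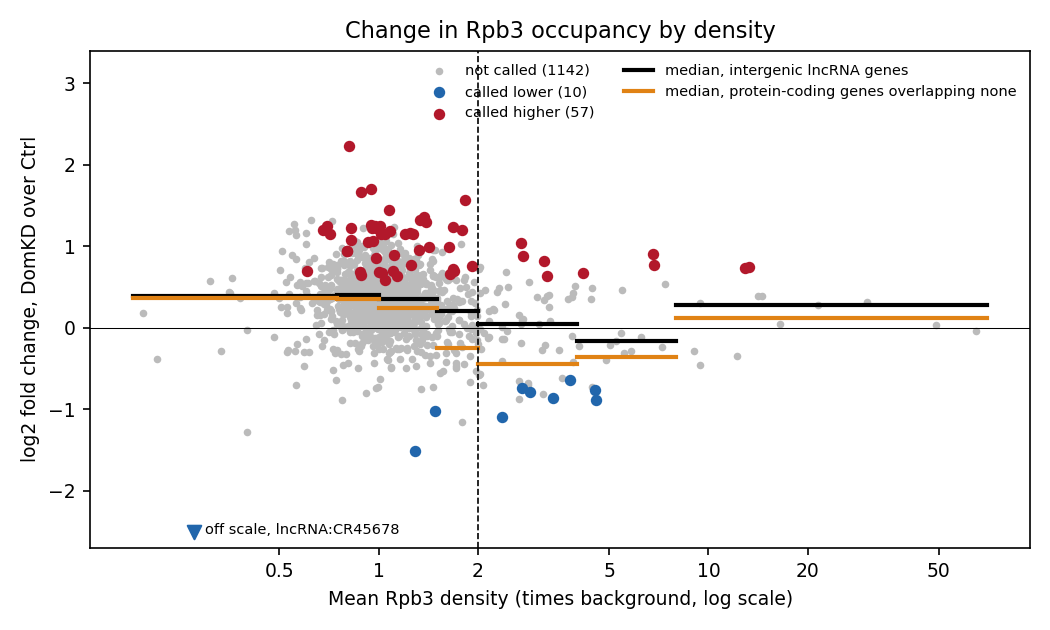
Log2 fold change (DomKD over Ctrl) of each of the 1209 intergenic lncRNA genes against its mean Rpb3 density in multiples of background (log scale); blue and red points passed the test, and the triangle marks lncRNA:CR45678, which lies below the axis. The short horizontal lines are medians within density classes, and between 2 and 4 times background the black line of the lncRNA genes (0.04) lies above the orange line of non-overlapping protein-coding genes (-0.44).

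All 10 members that fell were within 1000 nt of another gene, as were 647 of the 1209 members (53.5%). By the rule on reads and separation, 8 members were reported as falls, 7 of them occupied. lncRNA:CR44564 (3L, 17335921 to 17337097, minus strand), whose start region is printed above, had 15.3 and 23.3 CPM in Ctrl and 9.66 and 8.25 CPM in DomKD. The libraries of the groups did not overlap, and the log2 fold change was -1.10 (SE 0.24, adjusted p 2.85e-04). Its nearest gene, CG6479, 74 nt upstream, was also lower, with -0.55 (adjusted p 0.0489). lncRNA:CR45602 (X, 10071391 to 10071734) averaged 10.3 ± 1.29 CPM over the Ctrl libraries and 5.65 ± 2.79 CPM over the DomKD libraries (SD, n = 2), or -0.88 on the log2 scale (adjusted p 0.0283 by edgeR). lncRNA:CR43260 (X, 19484858 to 19485423) had 13.4 and 11.5 CPM in Ctrl and 7.41 and 6.36 CPM in DomKD, a log2 fold change of -0.86. The other occupied falls were lncRNA:CR45417, lncRNA:CR44213, lncRNA:CR44813 and lncRNA:CR45290, with log2 fold changes between -0.79 and -0.64. All 7 were within 1000 nt of another gene, and for 6 of them that gene was occupied. Over all 95 occupied members, 71 (74.7%) were within 1000 nt of another gene, and the nearest gene was occupied for 61 (64.2%). Beside lncRNA:CR44813 the kinase gene Slik was lower too (-0.61, adjusted p 0.0471), while the other nearest genes had values between -0.52 and -0.37 that did not pass.

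Of these 8 falls, lncRNA:CR44564 kept its call in 13 of 14 other fits and lost it without Ctrl replicate 2. lncRNA:CR44213 and lncRNA:CR45417 lost theirs in 7 of the 13 fits that gave them an adjusted p (DESeq2 gave none). Without Ctrl replicate 1, 2 of all members were called lower, and without Ctrl replicate 2 only 1 (these lists were lncRNA:CR44564 and lncRNA:CR45678, and lncRNA:CR45678 alone). Without DomKD replicate 1 there were 28.

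Of the 9 occupied members that rose, 6 were at 1000 nt or more from every other gene, as were 24 of all 95 occupied members. The 6 include lncRNA:CR45258 and lncRNA:CR45700, which are each other's nearest gene and not independent examples. lncRNA:CR45258 (2L, 19327367 to 19327963, plus strand) had 4.40 and 6.44 CPM in Ctrl and 11.7 and 10.3 CPM in DomKD (log2 fold change 1.04, SE 0.28, adjusted p 0.00325). Upstream on the same strand, lncRNA:CR45700 (2L, 19322938 to 19326106) had 32.2 and 30.2 CPM in Ctrl and 63.0 and 52.1 CPM in DomKD (log2 fold change 0.88, SE 0.21, adjusted p 7.78e-04). In both genes of this pair the groups did not overlap. Of the 2R trio, lncRNA:CR44763 (22689495 to 22690295) had 19.8 and 19.0 CPM in Ctrl and 42.6 and 30.3 CPM in DomKD (log2 fold change 0.91, adjusted p 7.00e-04). In lncRNA:CR44762 the rise of 0.74 (adjusted p 0.0319) came mainly from DomKD replicate 1, with 35.1 CPM, whereas DomKD replicate 2 had 16.8 CPM against 16.1 and 14.8 CPM in Ctrl. The same held for lncRNA:CR46098 (3R, 25137701 to 25138001), with 34.7 and 16.0 CPM against 15.7 and 14.6. It lies 70 nt from danr, an eye and antenna determination gene at 18.1 times background, whose change of 0.29 did not pass.

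lncRNA:CR45266 (2R, 12777324 to 12778995) had 40.5 and 46.7 CPM in Ctrl and 89.2 and 59.3 CPM in DomKD. The log2 fold change was 0.77, with an SE of 0.23 and an adjusted p of 0.00980. The gene is 1545 nt upstream of sca, the gene of the secreted Notch pathway protein Scabrous, which had 0.50 (adjusted p 0.172). The remaining rises were lncRNA:CR43302 (0.82), lncRNA:CR44126 (0.68) and lncRNA:CR45758 (0.64). All 9 lost their call when scaled to early zygotic genes or to the background density. Under these scalings 0 occupied members were higher by edgeR at an adjusted p under 0.05, with 2 and 1 at an unadjusted p under 0.05, and with DESeq2 and its own size factors 3 of the 9 kept their call, while 2 (lncRNA:CR43302 and lncRNA:CR45258) were given no adjusted p. In multiples of each library's own background, both DomKD libraries were above both Ctrl libraries at 4 of the 9.

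**Figure D4:**
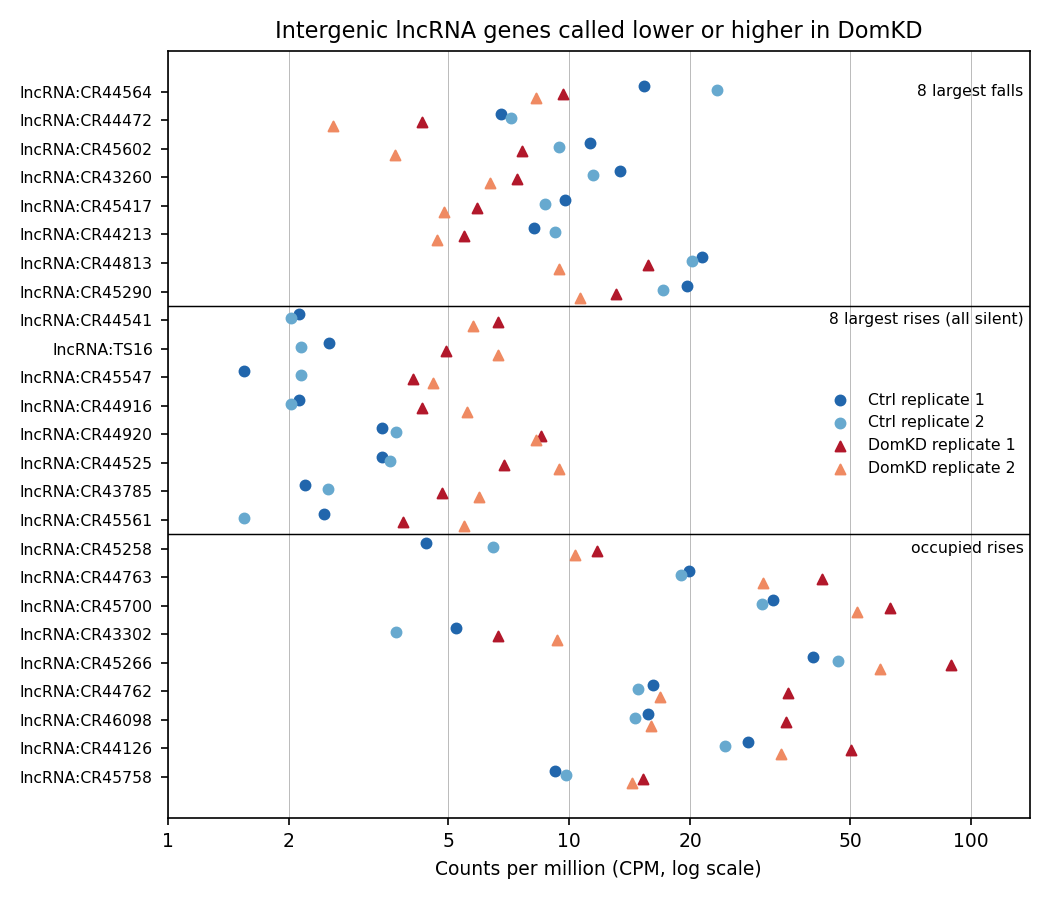
CPM per library (log scale) for the 8 largest falls, the 8 largest rises and the 9 occupied rises among intergenic lncRNA genes, with blue circles for Ctrl and red or orange triangles for DomKD. The 8 falls and 8 rises were chosen among genes whose groups do not overlap. The groups do not overlap at the 9 occupied rises either, as at 62.6% of all tested genes. At lncRNA:CR44762 and lncRNA:CR46098 DomKD replicate 2 lies next to the Ctrl libraries (16.8 against 16.1 CPM, and 16.0 against 15.7 CPM).

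The change of an occupied member resembled that of its nearest gene. Over the 94 occupied members with a tested nearest gene, the log2 fold changes of member and nearest gene had a Pearson r of 0.76 and a Spearman rho of 0.75, given as a description, since the points share libraries and neighbours can share fragments. Both had the same sign in 76 of 94 pairs, as they did in 807 of 1068 pairs of silent members. Pearson r was 0.74 where the nearest gene was within 1000 nt and 0.52 (Spearman rho 0.37) where it was farther away. Members that are each other's nearest gene enter both ways round. Such pairs include lncRNA:CR45700 and lncRNA:CR45258 among the farther points and lncRNA:CR44762 and lncRNA:CR44763 among the nearer ones. For the 1068 silent members with a tested nearest gene r was 0.13, and for the 121 of them with an occupied nearest gene it was 0.48. The 71 occupied members within 1000 nt of another gene had a median of -0.13, with 7 lower and 3 higher, namely lncRNA:CR44762, lncRNA:CR44763 and lncRNA:CR46098. The 24 at 1000 nt or more had a median of 0.41, with 0 lower and 6 higher by edgeR, and 22 of the 24 were above 0. This median lay next to that of all 561 members at 1000 nt or more, silent ones included (0.40), and to the 0.38 by which the background density itself was higher in DomKD after the same scaling. At an unadjusted p under 0.05, 0 of the 24 were lower by edgeR, as by DESeq2, and 1 was called lower without DomKD replicate 1. Taken by library, the 24 and the background ran in opposite orders. For DomKD replicate 1 the median of the 24 relative to the Ctrl mean was 0.56, beside a background shift of 0.17. For DomKD replicate 2 these values were 0.27 and 0.56. Whether background accounts for the values of the 24 was not tested. By orientation the medians were -0.19 for the 26 occupied members that converge on their nearest gene, 0.10 for the 29 divergent ones, 0.22 for the 24 with a neighbour upstream on the same strand and 0.43 for the 16 with one downstream. These differences between subsets were not tested.

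**Figure D5:**
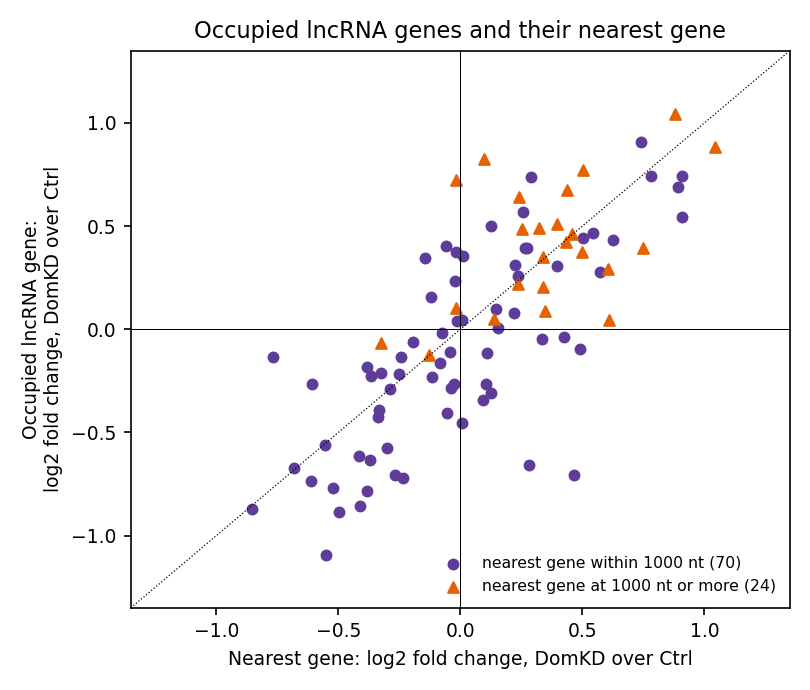
Log2 fold change (DomKD over Ctrl) of 94 occupied intergenic lncRNA genes against that of the nearest other gene; circles have the nearest gene within 1000 nt and triangles farther away. Points follow the dotted line of equal change (Pearson r 0.76 over all points and 0.52 over the triangles), and 22 of the 24 triangles lie above 0 on the vertical axis.

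At the 1114 silent members, 3 were lower and 48 higher, or 0.269% and 4.31%, beside 2.51% and 3.32% of all silent genes. Their median log2 fold change was 0.36. After the same scaling, the background density itself was 0.38 higher in DomKD on the log2 scale, with 0.17 for DomKD replicate 1 and 0.56 for replicate 2. Relative to the Ctrl mean, the silent members had medians of 0.18 and 0.49 in these libraries. Scaled to the background density, their median was -0.01 and 7 were higher and 11 lower. By the rule on reads and separation, the 8 largest rises were all silent genes. lncRNA:CR44541 (3L, 10242799 to 10243242) had 2.12 and 2.03 CPM in Ctrl and 6.66 and 5.76 CPM in DomKD (log2 fold change 1.57, SE 0.36, adjusted p 4.65e-04). In multiples of background it went from 1.05 and 1.09 in Ctrl to 3.04 and 2.01 in DomKD, so that it would be occupied in the DomKD libraries alone. lncRNA:TS16, the testis gene in the bithorax complex, had 2.53 and 2.15 CPM in Ctrl and 4.94 and 6.66 CPM in DomKD (log2 fold change 1.30, SE 0.36, adjusted p 0.00528), at 1.73 and 1.78 times background in DomKD. lncRNA:CR44920 (2L, 21869956 to 21870652) went from 3.56 ± 0.20 to 8.36 ± 0.16 CPM (SD, n = 2), at 2.47 and 1.83 times background in the DomKD libraries. The other 5, lncRNA:CR45547, lncRNA:CR44916, lncRNA:CR44525, lncRNA:CR43785 and lncRNA:CR45561, had log2 fold changes between 1.19 and 1.25. Both DomKD libraries were above both Ctrl libraries in multiples of background at 43 of the 48, a count drawn from the values that selected them. In CPM the groups did not overlap at 47 of the 48, and at 526 of all 1114 silent members. When scaled to the background density, 7 of the 48 kept their call.

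The precision at silent members is low, with a median SE of 0.39 on the log2 scale against 0.27 at occupied members, and no call was made below an absolute log2 fold change of 0.58 at any member. Without Ctrl replicate 1, 3 members were higher, namely lncRNA:CR44096, lncRNA:CR44258 and lncRNA:CR45447. Without Ctrl replicate 2, 0 were higher by edgeR, with 80 at an unadjusted p under 0.05, and without DomKD replicate 1 there were 275. DESeq2 called 4 higher and gave no adjusted p to 37 of the 57.

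The silent members that were lower were lncRNA:CR44472, lncRNA:CR45375 and lncRNA:CR45678. Of these, lncRNA:CR44472 and lncRNA:CR45375 would be occupied in the Ctrl libraries alone. lncRNA:CR44472 was at 2.16 and 2.48 times background in Ctrl and 1.27 and 0.58 in DomKD. For lncRNA:CR45375 these values were 2.23 and 2.14 in Ctrl and 0.62 and 0.56 in DomKD. lncRNA:CR45678 (3L, 19933720 to 19934201, plus strand, 482 nt) had 15 and 12 reads in Ctrl and 0 and 0 in DomKD. Against a floor of 3 reads over both DomKD libraries it was at least 8.45-fold lower, from 1.31 CPM in Ctrl (edgeR adjusted p 8.99e-06). It was chosen after its values were seen, its density was 0.27 times background, and it is 1 of 2 members with 0 reads in any library. Its nearest gene RhoGDI, 789 nt away, had 308 and 153 reads in Ctrl and 174 and 307 in DomKD, a log2 fold change of 0.18 that did not pass (adjusted p 0.600). The reads that lncRNA:CR45678 had in Ctrl were thus fewer than background would give over its span (0.56 and 0.71 times background). In DomKD the reads that background would give were missing as well. The fold change therefore cannot be read as a change in Pol II occupancy, although the groups did not overlap. Why reads were missing was not tested.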

How the data were processed

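Of 28 samples in 14 groups, the 4 Rpb3 ChIP-seq libraries of stage 5 embryos (Ctrl and DomKD, replicates 1 and 2, grouped by their titles) were used. The other 24 were not analysed here, so no input was subtracted. The authors deposited raw counts for each transcript: reads were trimmed and mapped to dm6, duplicates and pairs of low mapping quality were dropped, and featureCounts summed the rest over whole transcript spans. Counting was blind to strand, and reads in several transcripts counted for each. Counts over a span mix paused, elongating and background reads. The deposited length column, a number of nt of no fixed unit class (other), is the span with introns.

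The Ensembl BDGP6 annotation held 34516 of the 34793 transcript identifiers, and 1198 of the 1209 members had the same span length in both annotations. Transposable element insertions were not counted as genes, and 33 members overlap one. Testing needed a transcript of at least 125 nt and a sum above 10 reads. edgeR 4.0.16 under R 4.3.3 ran a likelihood ratio test without a replicate block, p-values were adjusted by Benjamini-Hochberg over all genes, and calls were made at 0.05. Scaling used TMM (trimmed mean of M values), with factors of 1.02 and 1.01 for Ctrl and 0.895 and 1.09 for DomKD. The study scaled on its own list of Zelda targets, which was not used. CPM values are TMM-scaled, densities are not. Log2 fold changes above 0 mean more in DomKD, SE is the standard error of the fit, and SD values are over 2 libraries. Background was the mode of log2 density with a kernel bandwidth of 0.1. On simulated counts for these 16513 genes the test called 76% and 78% of genes changed by -1 and 1 on the log2 scale and 0.0858% of unchanged genes. These rates were not split by read depth or given for members alone. The median sum over the libraries was 141 reads for members and 735 for all tested genes. The rates therefore cannot tell how often such changes would be called at members. Tables were joined with Python 3.11.15, pandas 2.3.3 and numpy 2.4.6, and plots drawn with matplotlib.

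The members, lists and tests were chosen with earlier results of these data known. Named were dom, members with a symbol other than a CR number, the 10 occupied members with the highest Ctrl density and a mean of at least 30 counts, the 8 largest falls and 8 largest rises among called members with at least 30 counts whose groups did not overlap, the 5 silent members with most reads, 3 members on either side of the occupancy threshold, and nearest genes. Alternatives covered scaling, test, filter, threshold, transcript choice, distance to other genes and leaving out each library.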

Additional observations from a re-analysis of the deposited data

How the results depend on the processing

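Of the 10 members called lower and 57 called higher, the counts moved to 6 and 27 with the quasi-likelihood test, to 1 and 4 with DESeq2 and its own size factors (1063 members had no adjusted p there, among them 6 of the 10 and 37 of the 57, which are not lost calls), to 4 and 14 at an adjusted p under 0.01, to 4 and 29 when the size of the log2 change had also to reach 1, and to 0 and 34 among members at least 1000 nt from every other gene (0 lower and 111 higher at an unadjusted p under 0.05, edgeR). The members called higher were 19 with library size only and 1 when TMM was run on early zygotic genes. Scaling to the background density, added after seeing the data, gave 26 lower and 7 higher. With the replicate block 8 were lower and 37 higher. The correlation of the replicate differences between the groups was -0.14. This value cannot decide whether shared replicate numbers pair the samples, since DomKD replicate 2 also held the most background reads. A crossed replicate block, also added after seeing the data, gave 17 lower and 91 higher. Leaving out 1 library gave between 1 and 28 lower and between 0 and 275 higher. The counts stayed within 1.5 times the reported ones with the longest transcript per gene, no filter on low counts, filterByExpr, more than 100 reads and without members that overlap a transposable element insertion. The cause of these shifts was not tested.

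The median log2 fold change of occupied members was -0.29 with the early zygotic factors, -0.30 when scaled to the background density and 0.41 at 1000 nt or more from other genes; that of silent members was 0.11 with the early zygotic factors and -0.0084 when scaled to the background density. With the replicate block these medians were 0.03 and 0.35, and without 1 library they ranged from -0.10 to 0.23 and from 0.18 to 0.50. The count of 95 occupied members was 193 at 1.5 times and 54 at 3 times background, and 24 at 1000 nt or more from other genes. It was 129 with the Ctrl libraries only, 81 with the DomKD libraries only, and between 89 and 123 without 1 library.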

Other observations

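Among silent members with few reads, chosen after their values were seen, the largest rises were at lncRNA:CR44499 (X, 6013708 to 6014019), with 4 and 5 reads in Ctrl and 17 and 24 in DomKD (log2 fold change 2.23, SE 0.61, edgeR adjusted p 0.00199), and at lncRNA:CR46040 (3R, 19921313 to 19921671), with 12 and 5 reads against 26 and 26 (1.71, adjusted p 0.00619). Both were below background density, at 0.81 and 0.95 times. lncRNA:CR45415 also passed (1.67, adjusted p 0.0373), but its reads were 10 and 3 in Ctrl against 7 and 32 in DomKD, so that DomKD replicate 1 lay between the Ctrl libraries. On the other side, lncRNA:CR45375 (2L, 10441820 to 10442204) fell from 48 and 29 reads to 11 and 14 (log2 fold change -1.51, edgeR adjusted p 0.00585). Its mean density was 1.29 times background, with 2.23 and 2.14 in the Ctrl libraries. It lies 329 nt from loh, which had 0.12 (edgeR adjusted p 0.680).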
